A study of Mus musculus with 8 samples.

Results

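The Zfp genes are mouse genes named for zinc fingers, and 148 of them were expressed in the MII oocytes described here. They were chosen by symbol, Zfp followed by a number and at most 1 letter, and by level, an FPKM of 1 or more in 4 or more of the 8 oocytes. FPKM is the number of fragments per kilobase of gene, scaled to library size, so it can be compared between genes of different length. Of 37620 genes in the table, 378 carried such a symbol under this rule, 331 of these had a value above 0 in some oocyte and 47 were listed at 0 in all 8. The values that chose them were the levels themselves with no use of genotype, but a gene that reached the threshold in every oocyte of 1 genotype and in no oocyte of the other could not overlap between them. This was so for 6 of the 148, Zfp937, Zfp316, Zfp993, Zfp40, Zfp507 and Zfp113, which passed in all 4 KO oocytes and in 0 WT oocytes, and for 0 members the other way round. Of the 7833 genes of the table that met the same threshold of level, 163 passed in all 4 KO oocytes and in 0 WT oocytes.

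The data are RNA-seq of 8 single mouse oocytes of strain C57BL/6, held, as mature eggs are, at the second meiotic metaphase (MII). The 4 oocytes called WT are Hira f/f, and the 4 called KO are Hira f/f with Gdf9-Cre+, so all 8 carry the conditional allele of Hira, which encodes a chaperone of the histone variant H3.3. Gdf9-Cre is a recombinase driven in oocytes by the promoter of an oocyte growth factor gene. Because the sample titles give Gdf9-Cre+ for WT oocytes too, the genotype and description entries were used for grouping. No age or number of females was given. WT oocytes are numbered 1, 2, 4 and 5 and KO oocytes 1, 3, 5 and 6, and values per oocyte are listed in these orders below.

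Each sample is 1 cell and no female is named, so each genotype counts as 1 sample and no test between genotypes was run. SDs give the spread over 4 oocytes, a fold is a ratio of mean FPKM, and a difference is the KO mean minus the WT mean of log2(FPKM + 1). A gene was compared where it passed the same threshold of level, which held for 7833 genes, and was called apart at 2-fold. Library totals lay between 38032455 and 50208686 reads. Reads in genes made up 84.4% to 86.2% of the total in WT oocytes and 75.04% to 80.3% in KO oocytes. Genes at FPKM 1 or more numbered 7121 to 7467 in WT and 7827 to 8512 in KO, and the part of these shifts in the results below was not tested. Hira itself had 139 reads in the WT oocytes together and 4 in the KO oocytes, but 2 of the WT oocytes also held 0 and 1 reads. All 10 oocyte markers on the list were compared, with sums of 3094 to 4777 FPKM in WT and 2592 to 3130 in KO. Of 12 cumulus and granulosa markers, 2 were compared and 5, among them Amh and Foxl2, were at 0 in all oocytes. The 2 compared were Cyp19a1, at 16.6 to 27.5 FPKM in WT and 7.70 to 29.9 in KO, and Nr5a2, with means of 1.33 and 3.69. The sums of the 12 markers were 17.6 to 28.0 in WT and 14.5 to 33.8 in KO. Of 8 blood and stroma markers, 7 were in the table and 1 was compared (Pecam1), with sums of 2.88 to 11.01 in WT and 1.43 to 3.46 in KO.

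As background, most Zfp genes encode proteins with tandem C2H2 zinc fingers, each a short fold in which cysteines and histidines hold a zinc ion, and a row of fingers reads a stretch of DNA. Many carry a KRAB box, a short domain that recruits the co-repressor TRIM28 and with it the H3K9 methyltransferase SETDB1, and are best known for silencing retroelements. KRAB zinc finger genes sit in clusters of tandem duplicates on several mouse chromosomes, and in the early embryo, which depends on RNA and protein of the egg, some members keep imprints. A search of translated coding sequences found 0 to 30 fingers per member, with a median of 11 over the 146 members that are protein coding. A KRAB box was found in 93 members, which had a median of 12 fingers, and the other 53 coding members had a median of 5.

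Promoters of members of the same cluster can be much alike. The first pair below comes from a cluster on chromosome 2 and is shown because Zfp937 had the largest ratio of all members while Zfp442, with 90.1% of 312 aligned positions identical, overlapped between genotypes. The second pair comes from a cluster on chromosome 4, where Zfp979 is the second highest expressed member and Zfp600, chosen after its values were seen, shares 94.4% of 306 aligned positions with it. Each sequence is RefSeq's GRCm38.p6 promoter, from 250 bases before to 50 after the start of the gene, on the gene's own strand. Capitals mark bases that differ from the partner or have no counterpart in the alignment.

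Zfp937 (chr2:150217849-150218148, plus strand): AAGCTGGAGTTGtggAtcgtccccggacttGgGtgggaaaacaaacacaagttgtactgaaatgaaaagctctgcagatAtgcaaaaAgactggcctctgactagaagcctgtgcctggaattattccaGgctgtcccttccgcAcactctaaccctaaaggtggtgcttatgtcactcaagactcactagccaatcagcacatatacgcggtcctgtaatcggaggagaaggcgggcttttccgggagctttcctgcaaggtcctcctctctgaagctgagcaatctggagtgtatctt
Zfp442 (chr2:150451452-150451751, minus strand): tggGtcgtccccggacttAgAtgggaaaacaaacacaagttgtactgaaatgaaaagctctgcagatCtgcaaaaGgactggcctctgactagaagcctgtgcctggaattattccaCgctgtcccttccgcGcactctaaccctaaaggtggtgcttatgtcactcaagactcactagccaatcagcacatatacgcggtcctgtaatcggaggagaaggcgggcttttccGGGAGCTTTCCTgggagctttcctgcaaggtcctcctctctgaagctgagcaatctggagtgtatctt
Zfp600 (chr4:146156577-146156876, plus strand): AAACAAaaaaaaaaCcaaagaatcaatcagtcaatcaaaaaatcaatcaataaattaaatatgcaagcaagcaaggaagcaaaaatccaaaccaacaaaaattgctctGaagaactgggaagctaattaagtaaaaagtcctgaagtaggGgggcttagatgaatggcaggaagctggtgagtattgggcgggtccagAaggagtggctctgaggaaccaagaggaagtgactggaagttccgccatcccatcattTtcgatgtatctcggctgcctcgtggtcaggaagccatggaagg
Zfp979 (chr4:147642459-147642758, minus strand): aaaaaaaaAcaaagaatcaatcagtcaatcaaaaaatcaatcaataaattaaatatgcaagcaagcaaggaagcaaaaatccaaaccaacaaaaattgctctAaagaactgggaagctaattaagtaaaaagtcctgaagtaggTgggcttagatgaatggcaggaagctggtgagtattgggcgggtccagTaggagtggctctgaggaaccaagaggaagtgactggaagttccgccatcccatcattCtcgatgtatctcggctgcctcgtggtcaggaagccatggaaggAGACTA

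The first pair differs by 7 substitutions besides gaps and ends, and the second by 5. Zfp937 shared 70.9% of aligned positions with Zfp120 and 55.4% with Zfp345, the other genes of its cluster. RefSeq promoters were found for 125 of the 148 members. The letters TATAAA, sought on both strands, were in 4% of these and in 14.2% of all 27025 promoters, and CCAAT was in 50.4% against 37.9%. CCAAT was in 56.2% of the KRAB members' promoters and in 40% of the others. CpG dinucleotides had a median of 12 per promoter in members and 7 in all genes, and within members of 10 with a KRAB box and 21 without one. These matches are descriptions of the letters in the window.

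Mean levels over all 8 oocytes lay between 0.878 and 138 FPKM, with a median of 4.29 against 6.16 over all compared genes. Of the members, 82 were under 5 FPKM and 28 were at 20 or more, and the 10 highest held 44.2% of the summed level. The highest was Zfp873 (chromosome 10, 82048123 to 82064745), a KRAB gene with 16 fingers, at 96.4, 170, 140 and 183 FPKM in WT and 143, 168, 124 and 78.3 in KO. The genotypes overlapped, with means of 147 ± 38.5 and 128 ± 37.9 (SD, n = 4 oocytes each), and the lowest value was that of KO6.

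Zfp979 (chromosome 4, 147611937 to 147642513) was at 103, 62.1, 78.7 and 115 FPKM in WT and 138, 149, 192 and 159 in KO. Every KO oocyte was above every WT oocyte, and the means were 89.6 ± 23.7 and 159 ± 23.2, a ratio of 1.78. Zfp982, a neighbour (147492417 to 147513486) reported in embryonic stem cells to favour pluripotency genes, went the other way, at 90.1, 102, 118 and 157 in WT and 72.9, 68.4, 73.4 and 39.1 in KO. The groups again did not overlap, and the WT mean of 117 ± 29.02 was 1.84 times the KO mean of 63.4 ± 16.4. Zfp655 (chromosome 5), whose product binds the signalling protein VAV1, was at 113, 115, 131 and 130 in WT and 107, 82.9, 109 and 91.4 in KO. All its WT values lay above all KO values, but the difference was small, at -0.33 on the log2 scale. Neither this gene nor the previous pair reached 2-fold.

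Among the other highest members the genotypes overlapped. Zfp735 ranged from 81.8 to 128 FPKM in WT and from 89.6 to 136 in KO, and the ratio of its means was 1.01. Zfp706, a small protein with 1 finger that is known from mouse embryonic stem cells to favour exit from self-renewal, stood at 72.6 ± 12.2 and 74.9 ± 7.56. Zfp980, Zfp820, Zfp708 and Zfp616 had ratios of 1.44, 1.07, 0.980 and 1.12. Of Zfp708, 96.4% of the exon length overlaps exons of another gene and 94.9% of its 50-base words occur in transcripts of other genes, so its reads cannot be assigned to it alone. Zfp277 also belongs to the 5 smallest differences among the 20 highest members, at 40.4 ± 10.7 in WT and 36.5 ± 3.38 in KO.

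**Figure D1:**
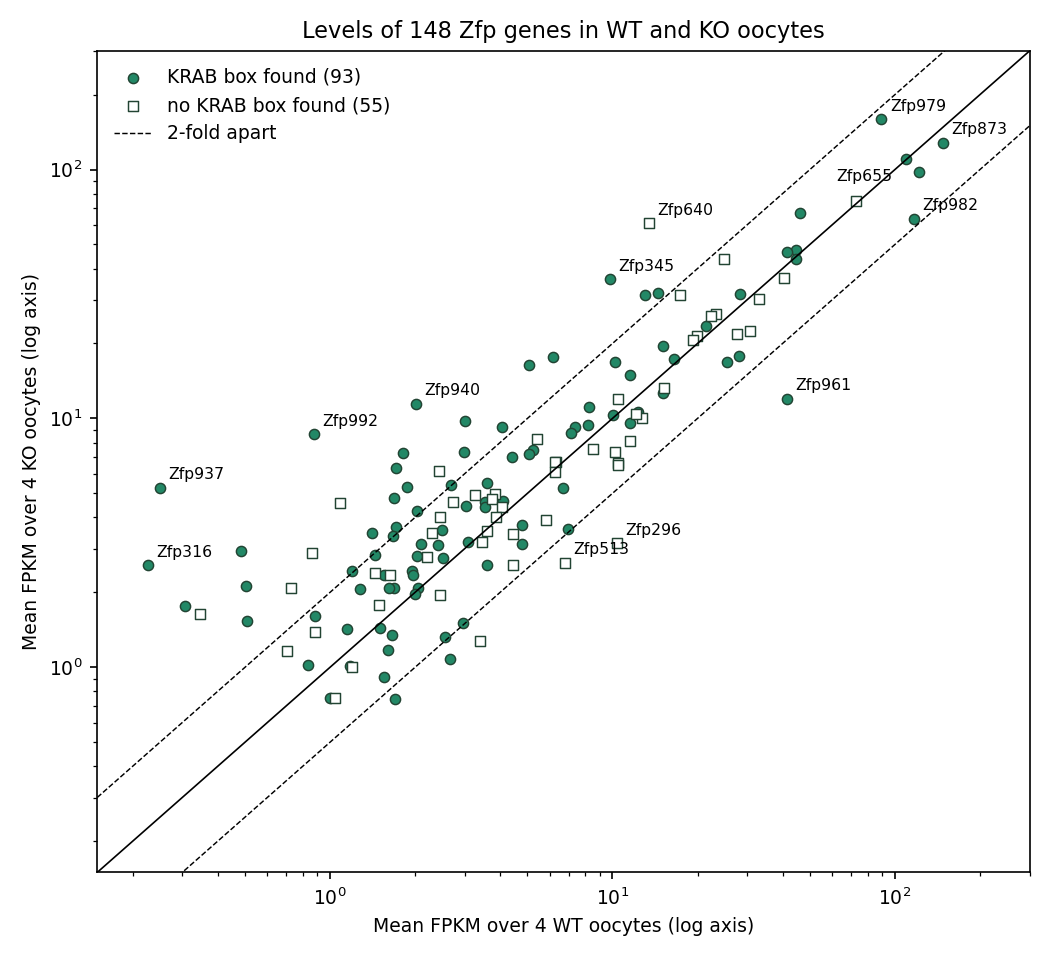
Mean FPKM of the 148 Zfp genes in 4 WT oocytes (x axis, log scale) and 4 KO oocytes (y axis, log scale), with filled circles for the 93 genes with a KRAB box, open squares for the other 55, a solid line at equality and dashed lines at 2-fold. Points above the upper dashed line are the 32 genes at least 2-fold higher in KO, most of them at low levels, and 6 lie below the lower line.

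At least 2-fold higher means in KO were seen for 32 members, 21.6% of 148, and 18.3% of all compared genes were as far apart in that direction. At least 2-fold lower means were seen for 6 members, 4.05%, against 6.84% of all compared genes, and the count was 10 without KO1 and 4 without WT1. With the further condition that no KO value lay among the WT values, the counts were 17 higher and 3 lower, against 10.5% and 3.64% of all compared genes. The members' shares were therefore near the background in both directions, and for 6 of the 32 the threshold of level fixed the direction and the lack of overlap, though not the 2-fold size. With at least 1 FPKM in at least 2 oocytes of each genotype, 21 members were higher, a count with no share of all genes under that filter beside it. The median difference was 0.22 on the log2 scale over the members and 0.10 over all compared genes, and 98 of 148 members (66.2%) had the higher mean in KO, as had 56.3% of all compared genes. In each oocyte, 131 to 141 Zfp genes reached 1 FPKM in WT and 149 to 162 in KO. Over the whole table the counts did not overlap either, at 7121 to 7467 in WT and 7827 to 8512 in KO. The members' summed level was 1526 to 1979 FPKM in WT and 1859 to 2197 in KO, so the sums overlapped. As a share of reads in genes the members took 0.643% to 0.836% in WT and 0.840% to 0.948% in KO.

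The 10 members with the largest ratios among those whose oocytes did not overlap included genes that were almost silent in WT. Zfp937 (ENSMUSG00000060336, chromosome 2, 150218073 to 150240725), a KRAB gene with 14 fingers, was at 0.646, 0.0237, 0.107 and 0.226 FPKM in WT and at 3.66, 8.94, 2.06 and 6.46 in KO. Each KO oocyte was above 2 FPKM and each WT oocyte below 1, a lack of overlap that the threshold of level fixed. The means were 0.251 ± 0.277 and 5.28 ± 3.04 (SD, n = 4), resting on 120 and 2527 reads, a ratio of 21.1 that was 44.5 without WT1, the highest WT oocyte. Zfp442, whose promoter is printed above with that of Zfp937, stood at 8.15, 12.1, 16.9 and 8.96 in WT and 13.7, 10.98, 7.79 and 6.02 in KO. Its groups overlapped, with a ratio of 0.835.

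Zfp316 (chromosome 5, 143249697 to 143270022) was at 0.237, 0.293, 0.164 and 0.213 FPKM in WT and 1.44, 2.46, 2.59 and 3.80 in KO. The WT values lay close together, and the ratio was 11.3. Since Zfp316 reached 1 FPKM in KO oocytes alone, the threshold of level fixed its lack of overlap. Zfp992 (chromosome 4, 146449023 to 146470292) was at 0.423, 0.834, 1.62 and 0.636 in WT and 4.68, 11.8, 8.05 and 9.99 in KO. Its means of 0.878 ± 0.522 and 8.64 ± 3.06 gave a ratio of 9.84. Zfp940 (chromosome 7, 29833620 to 29853669) was at 1.596, 1.44, 2.70 and 2.31 in WT and 8.48, 11.7, 10.6 and 15.1 in KO. This gene passed 1 FPKM in all 8 oocytes, shared 1.58% of its words with other transcripts, and had a ratio of 5.70 over means of 2.01 ± 0.596 and 11.5 ± 2.74.

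Zfp640 and Zfp345 had the largest ratios among members at 20 FPKM or more. Zfp640 (chromosome 13, 66669928 to 66698243), annotated as a transcribed processed pseudogene, was at 5.78, 18.3, 21.8 and 8.08 FPKM in WT and 42.6, 99.04, 40.5 and 61.9 in KO. The lowest KO oocyte was well above the highest WT oocyte, and the means were 13.5 ± 7.77 and 61.0 ± 27.1, a ratio of 4.52. Zfp345 (chromosome 2, 150470991 to 150485091) was at 5.87, 7.16, 9.73 and 16.5 in WT and 25.4, 17.9, 42.2 and 59.3 in KO. The highest WT value, in WT5, was just under the lowest KO value, in KO3, and the ratio was 3.68. Zfp640 shared 50.8% of its words with transcripts of other genes and Zfp345 29.9%, so reads of near-identical copies may have been counted in either.

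The remaining 4, all at low levels, complete the leading 10. In each of these 4 the threshold of level fixed the lack of overlap. Zfp993 was at 0, 0.935, 0.391 and 0.619 FPKM in WT and 2.61, 4.77, 2.47 and 1.90 in KO, and its ratio was 6.05. Zfp40 was at 0, 0.187, 0.342 and 0.698 in WT and 1.07, 1.49, 1.87 and 2.63 in KO, a ratio of 5.75 that was 9.995 without WT5. In neither gene did a WT oocyte reach 1 FPKM. Zfp507 had a ratio of 4.73, or 7.35 without WT5, and Zfp113 one of 4.22, and their WT values reached at most 0.720 and 0.806 FPKM. Of Zfp507, 28.3% of the exon length overlaps another gene, and 86.8% of the words of Zfp993 occur elsewhere.

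In the other direction, Zfp961 (ENSMUSG00000052446, chromosome 8, 71951038 to 71993792), a KRAB gene with 11 fingers, was at 27.7, 28.3, 62.9 and 46.9 FPKM in WT and 14.6, 9.22, 13.1 and 11.1 in KO. All KO values lay below all WT values, and the mean was 3.46-fold lower than the WT mean of 41.5 ± 16.9 (SD, n = 4), on 8269 reads against 29309. Zfp513 (chromosome 5, 31198981 to 31202303) was at 7.69, 4.89, 6.70 and 7.89 in WT and 3.16, 1.43, 3.01 and 2.93 in KO, with a 2.58-fold lower mean. Its groups did not overlap, and KO3 was the lowest. Zfp81 was at 2.43, 1.71, 1.19 and 1.49 in WT and 1.09, 1.18, 0.430 and 0.286 in KO. Its highest KO value was just below its lowest WT value, and its 2.28-fold lower mean became 1.96-fold without WT1, 1.998-fold without KO5 and 1.89-fold without KO6, below the 2-fold line each time. The other 3 members with lower means in KO overlapped between genotypes, and Zfp821 and Zfp933 among them were chosen after their values were seen, with 2.67-fold and 2.47-fold lower means. Without WT1 that of Zfp821 was 1.70-fold lower, under the 2-fold line.

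**Figure D2:**
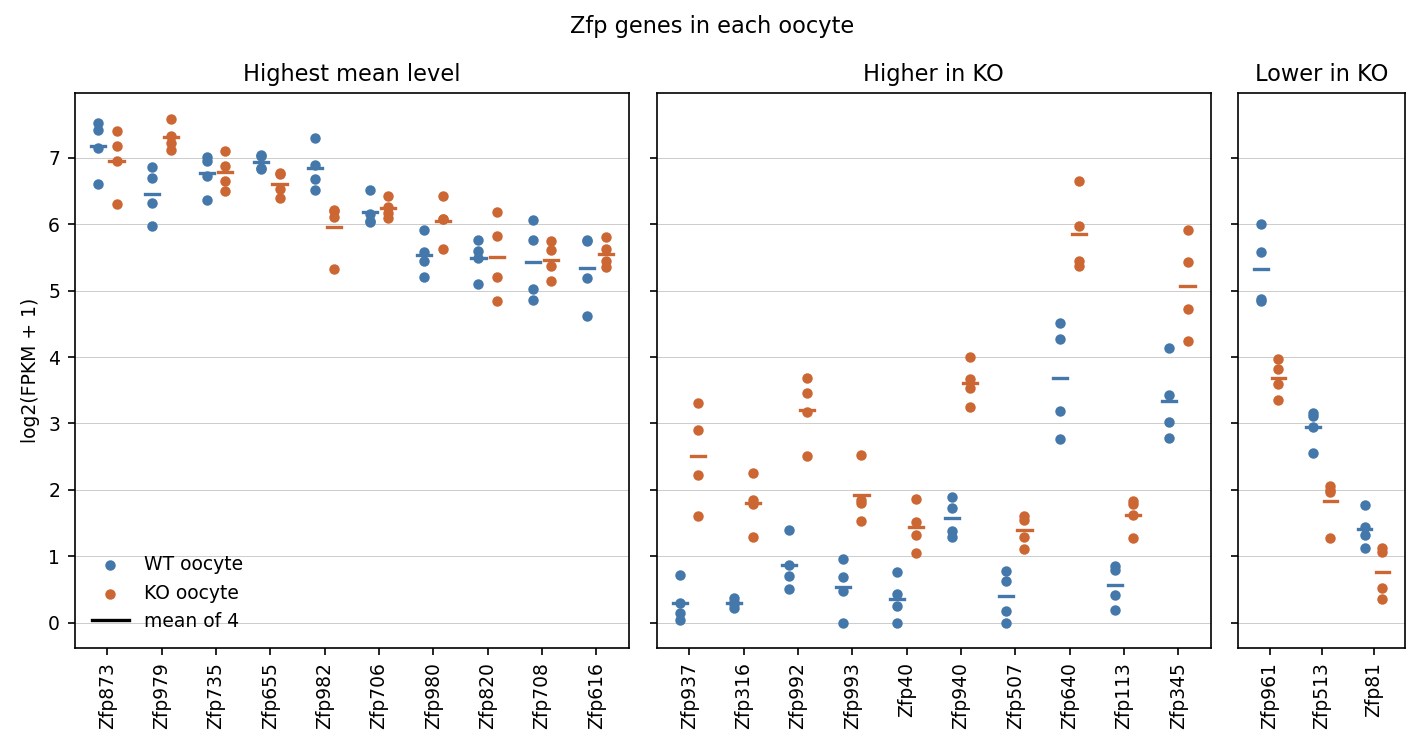
Level in each oocyte as log2(FPKM + 1) (y axis) for the 10 highest members, the 10 with the largest ratios in favour of KO and the 3 with lower KO levels, each set with no overlap between genotypes in the middle and right panels (x axis: gene). Dots are oocytes, blue for WT and orange for KO, and short lines are means of 4. Genes in the middle and right panels were picked for no overlap. In the middle panel, Zfp937, Zfp316, Zfp993, Zfp40, Zfp507 and Zfp113 passed 1 FPKM in all 4 KO oocytes and in 0 WT oocytes. For these 6 the threshold of level fixed the lack of overlap. In the left panel, picked by level, the WT and KO dots of Zfp873 overlap.

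The members were next divided by the KRAB box, and the shares below were not tested against each other. Of the 93 KRAB members, 26 (28%) passed 2-fold in favour of KO and 3 in favour of WT, against 18.3% and 6.84% of all compared genes, and the median difference was 0.31. The higher ones include 5 of the 6 that reached the threshold in KO oocytes alone. Of the 55 others, which include the 2 annotated pseudogenes, 6 (10.9%) were higher and 3 lower, with a median of 0.07. Without WT1 the higher ones were 23 (24.7%) with a KRAB box and 10 (18.2%) without, against 19.4% of all compared genes, and without KO1 the lower ones with a KRAB box were 7. The KRAB members' summed level overlapped between genotypes, at 979 to 1423 FPKM in WT and 1270 to 1476 in KO. Among 90 other compared genes with at least 3 C2H2 fingers but other names, 21 (23.3%) were higher and 4 lower, and 7 of the 19 with a KRAB box were higher. Members with 0 to 2 fingers had 1 of 13 higher (7.69%, or 2 genes without WT4) and those with 3 to 9 had 11 of 53 (20.8%). Those with 10 to 14 had 12 of 50 (24%) and those with 15 or more had 7 of 30 (23.3%), against 18.3% of all compared genes.

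The members were also divided by how much sequence they hold in common with other genes, again with no test between the shares. Each member's transcripts were cut into all words of 50 bases, and the share of words that also occur in transcripts of other genes was counted. The sources used here do not say how reads that map to several places were treated. At least 10% of words were shared in 40 members, and 16 of these (40%) were higher in KO and 1 lower, with 13 (32.5%) higher without WT5. The higher ones include Zfp937, Zfp993 and Zfp507, which reached the threshold of level in KO oocytes alone. In the KRAB members, 14 of 34 with such sharing were higher (41.2%) and 12 of 59 with less (20.3%), and the latter share is near the 18.3% of all compared genes. Without a KRAB box and with under 10% shared, 4 of 49 were higher (8.16%), or 7 without WT1. Over all compared genes with transcripts in the annotation, measured on every 5th word, 20.3% of the 1564 with at least 10% shared were higher and 17.2% of the other 6060. By the same measure the members stood at 38.6% of 44 and 14.4% of 104. Whether the counting of reads from near-identical copies plays a part was not tested.

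**Figure D3:**
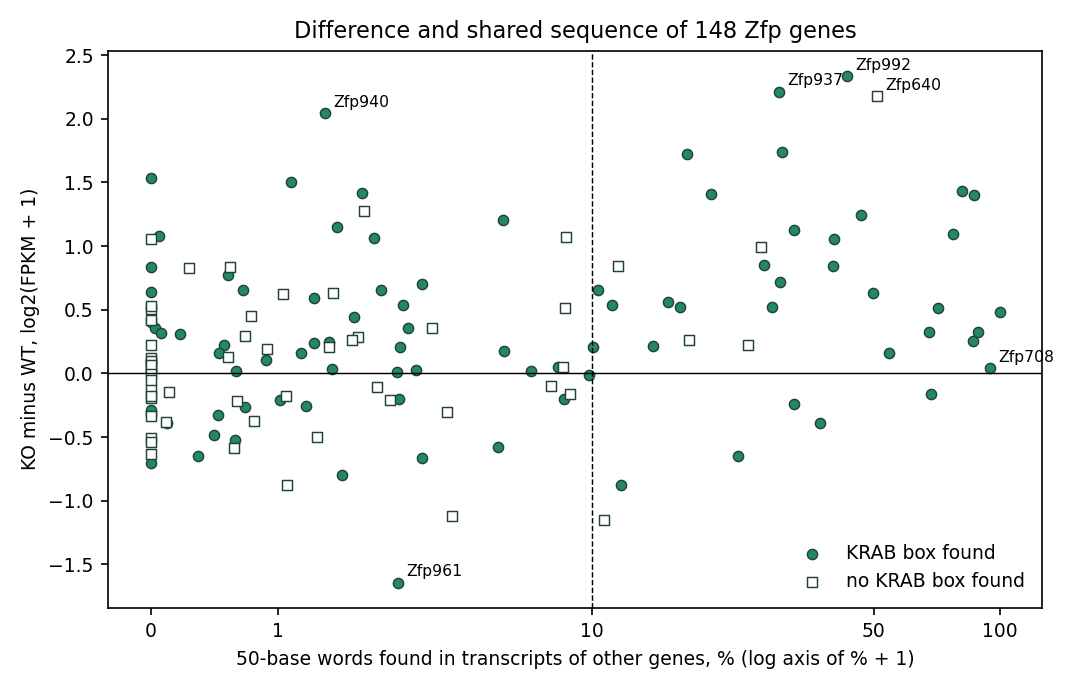
Share of a gene's 50-base words that occur in transcripts of other genes (x axis, percent, log scale of percent + 1) and KO minus WT difference in log2(FPKM + 1) (y axis) for the 148 Zfp genes, filled circles with a KRAB box and open squares without. Right of the dashed line at 10% lie 40 genes, of which 33 (82.5%) had the higher mean in KO. Measured on every 5th word, this share was 81.8% of 44 members and 58.8% of all compared genes with at least 10% shared. Zfp940 and Zfp961, with large differences, lie left of the line.

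**Figure D4:**
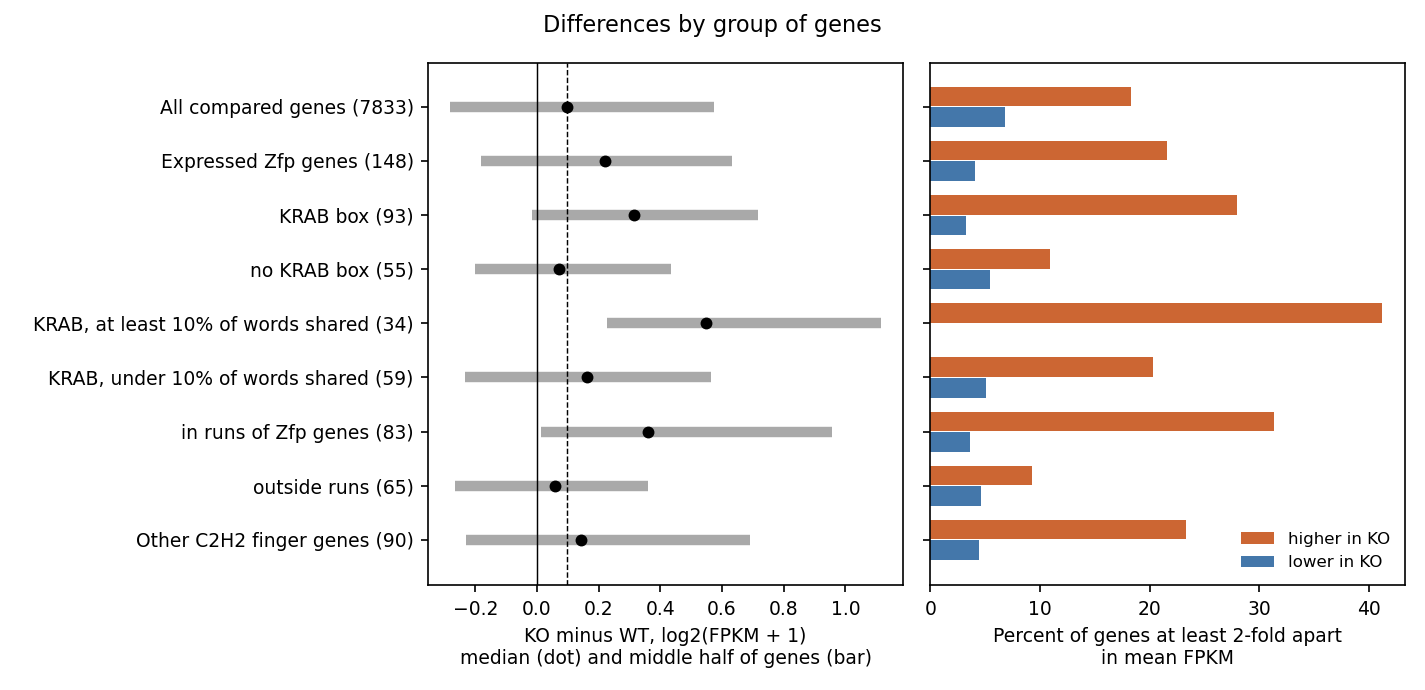
Left, median (dot) and interquartile range (bar) of the KO minus WT differences in log2(FPKM + 1) by group of genes (y axis, number of genes in brackets), with a dashed line at the median of all compared genes, 0.098; right, percent of each group at least 2-fold higher (orange) and lower (blue) in KO. The KRAB genes with at least 10% of words shared stand at 41.2% higher and 0% lower, and the KRAB genes with less sharing at 20.3% and 5.08%.

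Many expressed Zfp genes lie next to each other. On GRCm38, with gaps of at most 500 kb between annotated Zfp genes, 10 clusters held at least 3 members, and together these held 60 of the 148 members among 122 annotated Zfp genes. Of the members that lie in runs of at least 3 annotated Zfp genes, 26 of 83 (31.3%) were higher in KO, and outside such runs 6 of 65 (9.23%), or 10 (15.4%) without WT1, against 18.3% of all compared genes. The higher ones in runs include Zfp937, Zfp993 and Zfp40, which reached the threshold of level in KO oocytes alone. The shares in and outside runs were not tested against each other. With under 10% of words shared these shares were 12 of 51 (23.5%) in runs and 4 of 57 (7.02%, or 7 genes without WT1) outside them. The KRAB members made up 53 of the 60 in the 10 clusters.

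The cluster on chromosome 4 (145510759 to 147848366) had the most members, 14 of 18 annotated genes, all with a KRAB box. As background, deletion of a KRAB zinc finger cluster in this part of the chromosome is known to release endogenous retroviruses in mouse embryonic stem cells. Its summed level was 253 to 402 FPKM in WT and 333 to 420 in KO, which overlap, with means of 309 ± 66.8 and 387 ± 40.3. The median difference was 0.42. At least 2-fold higher were 5 members (35.7%), and 1 (7.14%), Zfp933, was lower, against 18.3% and 6.84% of all compared genes. All 5 higher ones had no overlap, against 10.5% of all compared genes, but Zfp993 among them reached the threshold of level in KO oocytes alone. Besides Zfp992 and Zfp993 the higher ones were Zfp600, Zfp981 and Zfp978, chosen after their values were seen, with ratios of 3.24, 2.28 and 2.18. The ratio of Zfp978 was under 2 without WT1 (1.97), WT2 (1.97) or KO3 (1.94). Zfp600 stood at 2.52, 2.17, 3.64 and 3.71 in WT and 9.46, 11.4, 10.4 and 7.74 in KO, while Zfp979, whose promoter resembles it, had the ratio of 1.78 given above. A median of 68.2% of words was shared with other genes here, so the division of reads between these neighbours is uncertain. With a gap of 250 kb the cluster split, and the median of its largest run was 0.16.

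In the cluster on chromosome 13 (66669928 to 67827002), 6 of 24 annotated genes were members, with a median difference of 0.98. Of the 6, 5 (83.3%) were at least 2-fold higher, against 18.3% of all compared genes. Without WT5 the count was 2, Zfp640 and Zfp58. The summed level was 46.6 to 104 FPKM in WT and 122 to 180 in KO, with no overlap. Zfp640 was the largest part of this difference. The sum had means of 77.2 and 149.7, and Zfp640 alone of 13.5 and 61.0. Besides Zfp640 the higher ones were Zfp58, Zfp85, Zfp729b and Zfp273, chosen after their values were seen, with ratios of 2.40, 2.46, 2.14 and 2.04. Without WT5 the ratios of Zfp85, Zfp729b and Zfp273 were 1.96, 1.71 and 1.77. The ratio of Zfp729b was also under 2 without KO6 (1.91), and that of Zfp273 without WT1 (1.95) or KO1, where it was 1.22. Zfp58 lay at 7.45, 9.98, 19.5 and 15.4 in WT and 23.4, 23.9, 40.4 and 38.0 in KO without overlap, and the last 3 overlapped. Zfp708, a KRAB gene known to bind a class of retroelements in the mouse, was the highest of the cluster and the exception, at 44.8 ± 18.0 and 43.9 ± 8.10. Shared words ranged from 16.8% to 94.9% over these 6 genes, and exons of other genes overlapped 50.2% of the exon length of Zfp58, 40.7% of Zfp729b and 14.4% of Zfp85.

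The cluster on chromosome 2 (150114406 to 150485091) had 4 annotated genes, all members. Of these, 2 (50%) were higher and 2 within 2-fold, while 18.3% of all compared genes were higher. Zfp937, 1 of the 2 higher, reached the threshold of level in KO oocytes alone. Zfp937 and Zfp345 are given above, Zfp442 had a ratio of 0.835, and Zfp120 had 1.10. Of the 4, Zfp120 had the smallest share of words that occur in transcripts of other genes, 0.873%. The summed level was 34.3 to 50.9 FPKM in WT and 65.6 to 87.1 in KO, and Zfp345 was the largest part of the difference. The sum had means of 43.0 and 74.7, and Zfp345 alone of 9.82 and 36.2.

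Chromosome 17 held 2 such clusters. In the one from 21008903 to 23599487, 13 of 23 annotated genes were members, all with a KRAB box. Higher in KO were 4 (30.8%) and lower 0, against 18.3% and 6.84% of all compared genes. Zfp40 among the higher ones reached the threshold of level in KO oocytes alone. Without WT4, WT5, KO1 or KO3, 1 member was lower. The median difference was 0.24, with 0.08 without WT2 and 0.54 without WT4. Zfp820 was its highest member, and Zfp947 had the largest difference, at 4.22, 0.115, 0.964 and 1.58 in WT and 1.78, 3.37, 9.03 and 11.1 in KO. WT1 lay above KO1 and KO3 there, and the ratio of 3.68 was 7.14 without it. Zfp760 had the lowest difference, -0.53, with means of 2.56 ± 1.75 and 1.32 ± 0.538 that overlapped between genotypes. A median of 3.05% of words was shared in this cluster, far less than on chromosome 4.

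In the cluster from 32765496 to 33631779 on the same chromosome, 5 of 13 annotated genes were members. Of the 5, Zfp952 (20%) was higher and Zfp81 (20%) lower, against 18.3% and 6.84% of all compared genes. Zfp952 was at 3.47, 6.99, 7.57 and 6.68 FPKM in WT and 18.0, 18.3, 15.4 and 19.02 in KO, a ratio of 2.86 with no overlap. Shared words did not pass 2.15% in any of these 5 genes. The median difference was 0.44, and leaving out 1 oocyte moved it to 0.24 (WT1), 0.17 (WT2), 0.67 (WT5) or 0.22 (KO1).

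On chromosome 7, the cluster from 29768552 to 30169750 had 6 members of 15 annotated genes, with a median difference of 0.37, or 0.21 without WT1. Its summed level was 12.2 to 15.8 FPKM in WT and 21.9 to 28.0 in KO, and Zfp940 was the largest part of the difference. Zfp74 had the lowest difference there, at 2.97 ± 0.623 in WT and 1.51 ± 0.469 in KO without overlap, a 1.96-fold lower mean. The smaller clusters held 3 members each. On chromosome 7 from 12415153, Zfp606 had a ratio of 2.09 and Zfp329 of 0.576, and the call of Zfp606 was lost without WT1 (1.72), WT2 (1.90), KO3 (1.97) or KO5 (1.77). From 42473386 on that chromosome, Zfp936 and Zfp977 had ratios of 1.58 and 0.816 and Zfp819 is given below. On chromosome 8 Zfp930 had the highest ratio, 1.23. Zfp866 had the lowest difference there, 0.02, but a ratio of 0.86, so its direction depended on the measure. On chromosome 18 Zfp24 had a ratio of 1.65 and Zfp35 of 0.720, and these genes of chromosomes 8 and 18 all overlapped between genotypes.

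**Figure D5:**
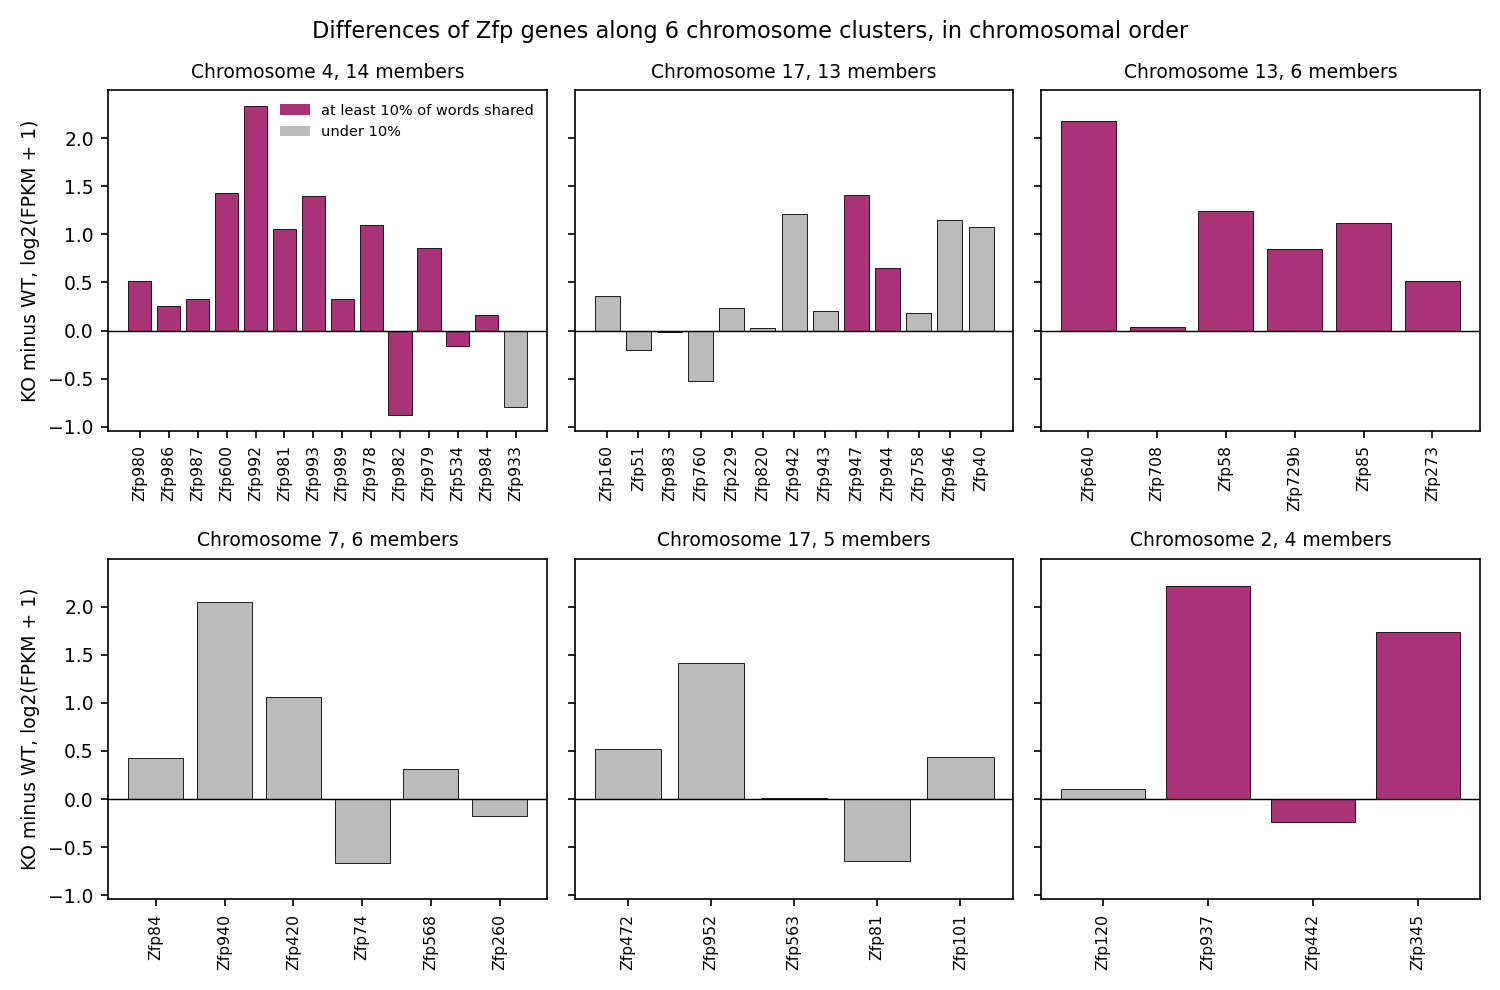
KO minus WT difference in log2(FPKM + 1) (y axis) of each member in the 6 clusters with at least 4 members, in chromosomal order (x axis: gene). Purple bars mark genes with at least 10% of words shared with other genes and grey bars the rest; on chromosome 2 Zfp442, at -0.24, lies between Zfp937 at 2.21 and Zfp345 at 1.74.

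Among KRAB genes known from mouse work to repress retroelements or imprinted genes, 5 of 6 listed were members, with a median difference of 0.31. Of these members, 1 (20%) was at least 2-fold higher and 0 were lower, against 18.3% and 6.84% of all compared genes. Zfp819, linked to retroelement repression, was at 1.02, 3.70, 0.767 and 1.18 FPKM in WT and 2.52, 5.41, 2.19 and 3.35 in KO. WT2 lay within the KO values, and the ratio of 2.02 was 3.39 without WT2 and under 2 without WT1 (1.79), WT4 (1.71), WT5 (1.84) or KO3 (1.61). Zfp445, a keeper of imprints, varied most between oocytes of 1 genotype among these genes, at 2.08, 3.87, 0.00673 and 0.249 in WT and 1.99, 4.30, 1.03 and 2.05 in KO. Zfp568, which represses a placental promoter of Igf2, stood at 1.95 ± 1.22 and 2.43 ± 0.171, and Zfp932, which binds endogenous retroviruses, at 3.59 ± 0.720 and 2.57 ± 0.915.

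The genes that KRAB proteins work with were measured as a list of 17. Of these, 16 were compared, and 1 (6.25%) passed 2-fold upward and 0 downward, against 18.3% and 6.84% of all compared genes. The median difference was 0.22, against 0.10 over all compared genes. Trim28 stood at 14.96 ± 3.51 FPKM in WT and 25.5 ± 2.73 in KO with no overlap, a ratio of 1.70, and Setdb1 at 13.3 ± 1.91 and 15.9 ± 3.50. Hdac1, a histone deacetylase of the associated NuRD complex, was the higher one, at 3.28 ± 0.923 and 23.7 ± 5.22, a ratio of 7.24 with no overlap. Atf7ip, the partner of SETDB1, had a ratio of 1.52 and Cbx1, which encodes a reader of H3K9 methylation, one of 0.695.

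Of 10 listed Zfp genes with roles in RNA and at the ribosome, 4 were members and 1 of these (25%) was higher, against 18.3% of all compared genes. Zfp473, which takes part in processing the 3′ ends of histone mRNA, was at 1.94, 0.598, 1.36 and 0.443 FPKM in WT and 0.871, 3.98, 7.13 and 6.25 in KO. KO1 lay among the WT oocytes and the other 3 KO oocytes above them, with a ratio of 4.20. Zfp598, a ubiquitin ligase that marks collided ribosomes, was at 5.58, 7.02, 5.03 and 5.61 in WT and 1.92, 3.04, 5.57 and 5.07 in KO, with overlap. Zfp106, which binds RNA, and Zfp638, which silences unintegrated retroviral DNA, had ratios of 1.26 and 0.732. The 3 members of the CCCH family of Zfp36, which bind AU-rich mRNA, were outside the rule and below the threshold of level, with means up to 1.37 FPKM (Zfp36l2 in KO).

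Of 6 listed genes of mitosis and genome stability, 3 were members and 0 were 2-fold apart. Zfp207, which carries the checkpoint protein BUB3 to kinetochores, stood at 8.56 ± 3.45 FPKM in WT and 7.54 ± 2.04 in KO. Zfp830, needed for cell division in the early mouse embryo, stood at 19.3 ± 6.31 and 20.6 ± 6.01, and Zfp451, a SUMO ligase, at 1.20 ± 0.240 and 1.01 ± 0.410. The genotypes overlapped in each.

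Chromatin-related Zfp genes gave 4 members of 12, none of them 2-fold apart, with a median difference of 0.27 against 0.10 over all compared genes. Zfp644, a partner of the H3K9 methyltransferases G9a and GLP, was at 2.01, 1.70, 3.06 and 4.17 FPKM in WT and 4.03, 5.71, 4.78 and 3.93 in KO. WT5 lay among the KO values, and the ratio was 1.69. Zfp410, known as a dedicated activator of Chd4, stood at 6.30 ± 0.316 in WT and at 7.47, 0.941, 11.4 and 6.87 in KO. The KO oocytes thus lay on both sides of the narrow WT range, and Chd4 had means of 7.19 ± 2.96 and 10.1 ± 2.79. Zfp518a and Zfp592 had ratios of 1.08 and 1.51.

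Among pluripotency and early embryo genes, 5 of 7 were members, with 0 higher and 1 (20%) lower, against 18.3% and 6.84% of all compared genes. Zfp296 was at 21.6, 3.45, 4.05 and 12.3 FPKM in WT and 3.40, 4.26, 2.70 and 2.24 in KO. WT1 and WT5 lay above all other oocytes and the remaining WT oocytes within the KO range, and its 3.29-fold lower mean was 2.10-fold lower without WT1. Exons of another gene overlap 12.9% of its exon length. Zfp322a was nearly constant in WT, at 11.5 ± 0.524, and at 6.65, 5.95, 12.3 and 7.61 in KO. Zfp143, an activator at many promoters, and Zfp281 had ratios of 1.53 and 0.981. Zfp706 is given above.

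Of the remaining role lists, Zfp110, which binds the p75 neurotrophin receptor, was the 1 member of 2, at 0.833 ± 0.400 FPKM in WT and 1.02 ± 0.201 in KO. Lineage genes gave 3 members of 9, none of them 2-fold apart. Zfp148 stood at 10.4 ± 1.65 and 12.02 ± 1.74, Zfp423, known from fat and cerebellum, at 3.87 ± 1.34 and 4.04 ± 0.752, and Zfp750, known from epidermis, at 10.5 ± 4.55 and 6.63 ± 0.837.

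Variation between oocytes of a genotype was wide for most members. The median coefficient of variation was 40.8% in WT and 34.5% in KO, against 36.3% and 32.2% over all compared genes. Zfp655 was the steadiest of the 40 highest members, with 8.05% and 12.8%. Over the 148 members, Pearson's r of log2(FPKM + 1) between oocytes was 0.864 to 0.925 in the 6 WT pairs, 0.876 to 0.918 in the 6 KO pairs and 0.763 to 0.874 in the 16 mixed pairs. These are correlations across genes, which share libraries and are not replicates. At the threshold itself, the members just inside were Zfp248, Zfp110 and Zfp397, at or above 1.001, 1.01 and 1.02 FPKM in 4 oocytes. The genes just outside were Zfp934, Zfp512 and Zfp704, at or above 0.995, 0.968 and 0.946 FPKM in 4 oocytes.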

How the data were processed

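Values are FPKM as deposited by the authors, scaled to the library total, in 1 table of 8 columns with no unused column. Per the labels' protocols, cDNA was made directly from single oocytes with a SMARTer ultra-low-input kit. ERCC spike-ins were added, but their values were not used here, so levels are relative within a library. Without giving roles, the submitters' processing notes list TopHat2 2.0.2, Bowtie 0.12.8, HTSeq, edgeR 3.1.10 and mm9. How strand and reads with several places were handled is not given in the sources used. Steps of the deposited FPKM gave whole reads for 100% of 105060 values above 0, within 0.001 reads. No count test was run, because each genotype is 1 sample.

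Symbols matched 32897 identifiers. Coordinates, exon overlaps, coding sequences and words of 50 bases came from GENCODE M21 on GRCm38, with no conversion from mm9. Fingers were counted by pattern, and KRAB boxes by a HMMER 3.4 profile of 183 mouse sequences at an E value of at most 0.001, which marked 349 of 22527 coding genes. Named members (62) are the 10 highest, up to 10 of the largest ratios in each direction without overlap (10 higher and 3 lower), the role lists, the leading members of each cluster, 3 on each side of the threshold and 5 of the smallest differences. The members and lists were chosen with earlier results of these data known. Steps were tested on simulated data. Python 3.11.15, pandas 2.3.3 and Biopython 1.88 were used.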

Additional observations from a re-analysis of the deposited data

Results flagged for a closer look

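Of 124 groups of 4 oocytes, 1 for each genotype of each named member, 7 had an oocyte whose gap to its nearest neighbour took up more of the group's range than Dixon's 95% limit for 4 values, and chance alone marks about 1 group in 20. In KO, Zfp982 was at 39.09 FPKM in KO6 with the next at 68.35, Zfp513 at 1.429 in KO3 with the next at 2.925, Zfp143 at 14.37 in KO1 with the next at 6.926, Zfp24 at 6.468 in KO3 with the next at 3.482, and Zfp277 at 41.56 in KO6 with the next at 35.55. In WT, Zfp819 was at 3.697 in WT2 with the next at 1.184, and Zfp423 at 5.867 in WT4 with the next at 3.434. No oocyte held more than 2 of the 7.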

How the results depend on the processing

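The 32 members higher in KO were 21 with at least 1 FPKM in at least 2 oocytes of each genotype, 119 of all Zfp genes with no filter, 16 with under 10% of words shared, 50 at 1.5-fold and 17 at 3-fold. The 6 lower ones were 40 with no filter, 3 without members whose exons overlap another gene, 17 at 1.5-fold and 2 at 3-fold. No share of all genes at these settings stands beside these counts. The 26 KRAB members were 12 with under 10% shared, and the chromosome 4 median of 0.42 was 0.16 in its largest run with a gap of 250 kb. Leaving out 1 oocyte gave 29 to 33 higher and 4 (without WT1) to 10 (without KO1) lower members, 23 to 26 KRAB and 6 to 10 other members higher. The members' median difference then lay between 0.12 (without WT1) and 0.31. Cluster medians lay between 0.67 and 1.23 (chromosome 13), 0.08 and 0.54 or 0.17 and 0.67 (chromosome 17), 0.31 and 0.53 (chromosome 4) and 0.21 and 0.47 (chromosome 7). Dividing by reads in genes and by median ratios gave 33 and 28 higher members, with medians of 0.195 and 0.006 over all compared genes. The causes were not tested. Of the 62 named genes, 24 values moved by more than the spread between oocytes, all with the pseudocount. Of the 19 that were 2-fold apart 0 changed sign under any setting, and of the other 43, 16 did under at least 1. The exclusion by shared words, the KRAB counts under other settings and the calls of other members and groups without 1 oocyte were chosen after seeing the data. At the low end a member rested on as few as 109 reads in the 4 WT oocytes together. No paired analysis was possible because nothing in the labels pairs oocytes of the 2 genotypes.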
